A study of Mus musculus with 41 samples.

Results

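The Esrrb-depleted mouse embryonic stem cell line KO2 was sampled after 3 days in AloXR medium and after 1 day in it, and the change between these times is described here across all genes. The libraries were chosen by the line and day in their names, which gave 4 at day 3 and 4 at day 1, or 8 of the 41 libraries of the study. RNA was measured by QuantSeq, which counts messenger RNA by a short read next to its poly(A) tail, and levels are given as CPM, counts scaled to 1000000 per library. The study follows E14 cells of 3 kinds out of 2iL medium, which holds them in naive pluripotency, and the comparison asks what still changes in Esrrb-depleted cells after their first day in AloXR.

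All groups used here had left 2iL for 1 day in N2B27, a serum-free basal medium, and had then entered AloXR, with 3 ng/ml activin A, 2 µM XAV and 1 µM BMS in N2B27. XAV is a tankyrase inhibitor that lowers Wnt signalling, and BMS is a retinoic acid receptor inverse agonist. The groups were KO2 at day 3 and day 1 (4 libraries each), KO3, the other Esrrb-depleted line, at day 3 (2) and day 1 (4), and WT E14 cells with Esrrb at day 3 and day 1 (4 each). After the first day in AloXR, cultures were lifted in clumps with Accutase and replated more densely on fibronectin. Time in medium, replating and density therefore changed together between day 1 and day 3, and their parts cannot be told apart. The labels do not state how Esrrb was removed, whether KO2 is 1 clone, or whether replicates were grown separately, so p-values measure the spread between these libraries, which may be technical.

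The 8 KO2 libraries held 3668018 to 5157009 assigned reads, so that 3 reads equal 0.582 to 0.818 CPM. Across tested genes, log2 values correlated between libraries with Pearson's r of 0.978 to 0.986 within day 3, 0.977 to 0.988 within day 1 and 0.958 to 0.972 between the days. Mitochondrially encoded transcripts took 3.43% ± 0.438 of reads at day 3 and 3.81% ± 0.463 at day 1 (SD, n = 4 each; exact permutation test, two-sided, p = 0.343, where 4 against 4 can reach 0.0286). Genes with at least 1 read numbered 18092 to 19428 at day 3 and 18421 to 19469 at day 1. For several genes libraries 1 and 2 stood apart from libraries 3 and 4, at day 3 as for H19 and Dppa3 below and at day 1 as for Pou3f1 and Krt19. Over 8495 genes with a mean of at least 10 CPM, deviations from the group mean correlated within these pairs with r of -0.472 to -0.178 at day 3 and -0.317 to 0.165 at day 1, and across them with r of -0.723 to 0.081 and -0.636 to -0.26. In WT at day 1 the same values were 0.022 to 0.131 within and -0.573 to -0.507 across the pairs, and in KO3 at day 1 -0.04 to 0.053 and -0.518 to -0.489. In KO2 at day 3 the highest r lay across these pairs, at 0.081 for libraries 1 and 3 and 0.03 for libraries 2 and 4. The split seen for single genes at day 3 therefore did not hold over the 8495 genes. Library numbers follow the order of deposition and are only names, no label gives a reason for the split of those genes, and the fit has no term for it.

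Naive mouse embryonic stem cells pass through a formative state before they can enter the germ layers. In that passage the naive transcription factors fall, Otx2, Pou3f1, Fgf5 and Dnmt3b come on, and new DNA methylation closes the CpG-rich promoters of many germline genes. Esrrb belongs to the naive network, where it binds beside Nanog, Klf and Tfcp2l1 proteins, and activin signalling sustains the formative state.

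Esrrb tags in KO2 measured 3.20, 1.26, 2.29 and 1.16 CPM at day 3, against 5.52, 4.83, 1.86 and 1.64 CPM at day 1. The ranges overlap, and the change of -0.52 ± 0.27 on the log2(CPM + 1) scale did not pass the test (limma, adjusted p = 0.2). Over the same days Esrrb measured 1.60 ± 0.286 CPM at day 3 in WT and 15.1 ± 2.87 CPM at day 1 (SD, n = 4 each), so the KO2 change lay above the WT change by 2.10 ± 0.38 (log2, adjusted p = 0.000339). In KO3 it measured 6.17 and 4.87 CPM at day 3 and 41.4, 38.5, 26.1 and 29.4 CPM at day 1, where every KO3 library lay above every WT library. In 2iL the tags measured 52.0, 55.2 and 56.7 CPM in KO2, against 434, 381 and 309 CPM in WT, so they were lower in KO2 but present. A 3′ tag may lie outside the deleted part of the gene, which the labels do not give, so these tags check the genotype only in part.

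The 13 core pluripotency genes summed to between 2503 and 2883 CPM at day 3 and between 2520 and 2972 CPM at day 1. Pou5f1, the central pluripotency factor, measured 13.5, 13.9, 13.8 and 15.9 CPM at day 3 and 9.04, 11.5, 8.38 and 12.8 CPM at day 1, with no overlap, but its change of 0.43 ± 0.19 (log2) did not pass the test (adjusted p = 0.121). Pou5f1 has processed copies elsewhere in the genome with which tags may be shared, so its level is uncertain. Sox2, its partner, measured 64.6, 44.4, 92.5 and 76.2 CPM at day 3 and 64.0, 76.8, 51.5 and 52.1 CPM at day 1, with overlapping ranges. Markers of other lineages were read beside these. The summed level of 21 mesendoderm markers was 33.1 to 38.1 CPM at day 3 and 24.9 to 35.9 CPM at day 1, with Msgn1 and Cdx1 at 0 in all 8 libraries. The globin genes Hba-x, Hbb-bh1 and Hbb-y were also at 0 in all 8.

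Between day 1 and day 3, genes called higher in KO2 included most of a list of actin, annexin, S100 and mesenchymal genes, the keratin genes Krt8, Krt18 and Krt19, the collagen genes Col1a1 and Col1a2, and 12 of 31 genes of sterol and fatty acid synthesis. Genes called lower included most of the germline and two-cell-like lists and 9 of 22 naive genes. Of 24 formative and 22 naive genes, 13 of each were called in neither direction. Of 16967 genes tested, 1069 were called higher at day 3 (6.3% of all tested) and 995 lower (5.86%), where a call needs a change of at least 1.5-fold and a Benjamini-Hochberg adjusted p under 0.05; the fold minimum is 0.58 on the log2 scale. The median change over all tested genes was 0.03 (log2). All 4 day 3 libraries lay above all 4 day 1 libraries in 853 of the genes called higher, and below them in 793 of the genes called lower. Such separation, with or without a call, held for 1701 and 1406 of all tested genes. The split of the calls moves with the scaling: with TMM-scaled values 944 genes were called higher and 1117 lower, and with edgeR on the recovered reads 877 and 962. In bulk RNA a lower level can mean fewer cells of a kind or less RNA per cell, and these cannot be told apart.

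**Figure D1:**
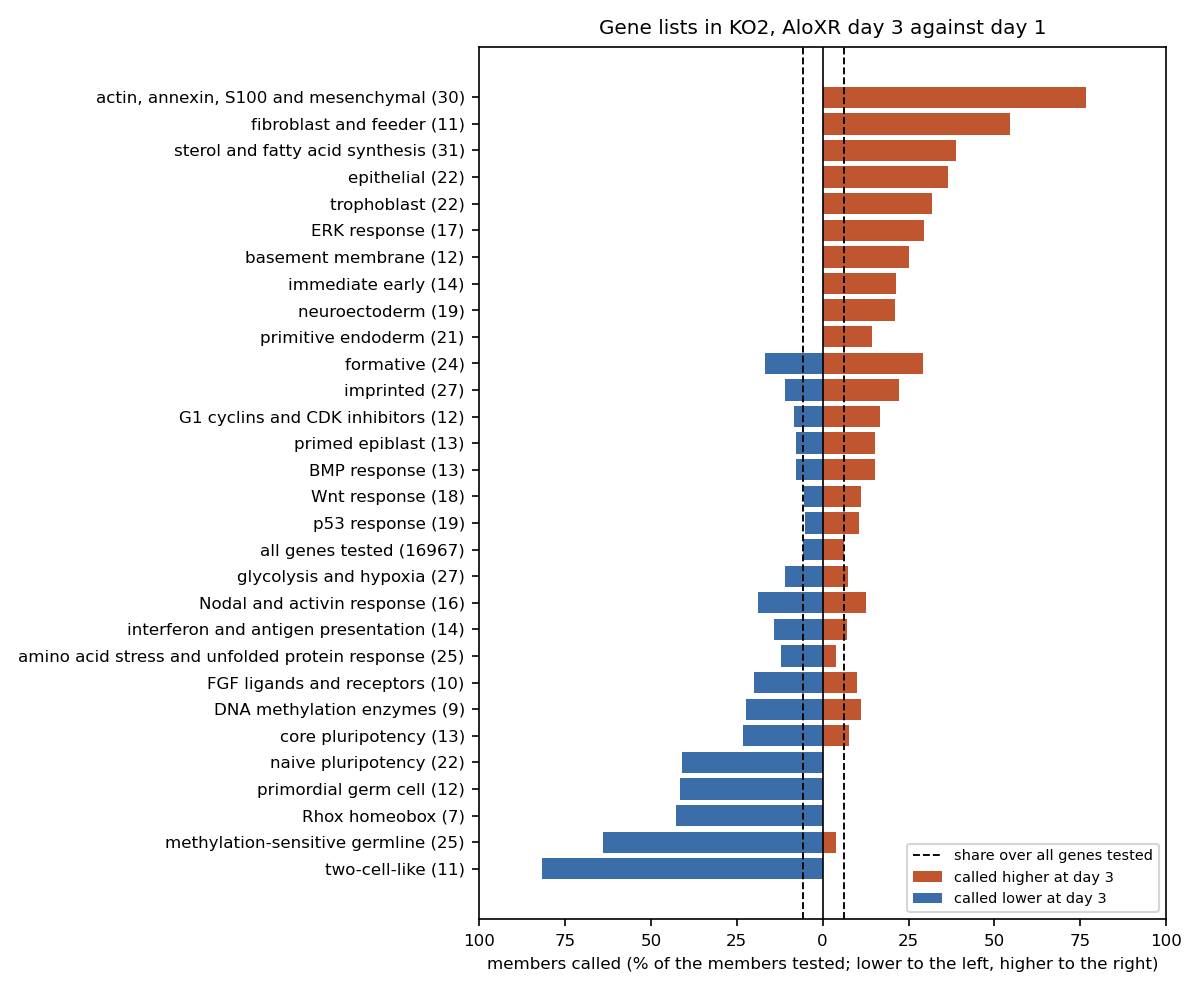
Share of each gene list called higher (right) or lower (left) in KO2 at AloXR day 3 against day 1, as a percentage of its members tested (number in brackets), for lists with at least 3 called members. Dashed lines mark the shares over all genes tested, 6.3% higher and 5.86% lower. The actin, annexin, S100 and mesenchymal list reaches furthest to the right, with 23 of 30 members called higher, and the two-cell-like list furthest to the left, with 9 of 11 called lower.

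Many of the largest rises were in genes of the contractile cytoskeleton. Of 30 genes in the actin, annexin, S100 and mesenchymal list, 23 were called higher and 0 lower, with a median change of 0.91 (log2). The count was 17 to 22 over the 17 alternative settings. Its members summed to between 2971 and 3707 CPM at day 3 and between 1615 and 1773 CPM at day 1. In WT the same list had 12 members called higher and 4 lower (9.81% and 8.91% of all tested genes), and in KO3 13 and 0 (5.07% and 2.59%). The KO2 change was called above the WT change for 4 of the 30 and below it for 0 (2.26% and 1.66% of all tested genes). Between KO2 and KO3 the difference in change was called for 0, so a stronger rise in KO2 than in KO3 was not shown.

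Acta2, the smooth muscle alpha actin, measured 121, 101.2, 96.7 and 70.6 CPM at day 3, against 9.79, 10.3, 7.45 and 7.63 CPM at day 1. Every day 3 library lay far above every day 1 library, and the change was 3.31 ± 0.22 (log2, adjusted p = 1.19e-15). Tagln, which encodes the actin-binding protein transgelin, measured 66.2, 39.9, 36.5 and 47.9 CPM at day 3, against 4.52, 9.20, 3.96 and 7.63 CPM at day 1, again with no overlap and a change of 2.76 ± 0.24 (log2). Cnn1, a calponin that binds actin and myosin in smooth muscle, measured 48.9, 42.4, 52.9 and 54.7 CPM at day 3, against 5.27, 10.8, 7.92 and 12.3 CPM at day 1. The 4 day 3 values of Cnn1 were close together, and its change was 2.38 ± 0.27 (log2).

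The sarcomeric actins moved as well. Acta1, the skeletal muscle actin, measured 66.2, 81.5, 65.0 and 70.8 CPM at day 3, against 11.1, 8.05, 6.99 and 7.36 CPM at day 1. Actc1, the cardiac actin, stayed low, with 14.8, 11.1, 7.92 and 11.8 CPM at day 3, against 2.51, 2.76, 1.16 and 0.82 CPM at day 1. Neither gene's groups overlapped, and the changes were 2.95 ± 0.32 and 2.18 ± 0.28 (log2). Myl9, a regulatory myosin light chain, measured 22.6, 30.5, 27.5 and 31.6 CPM at day 3, against 15.6, 17.7, 15.8 and 10.4 CPM at day 1, a smaller change of 0.89 ± 0.18 (log2). Abundant members rose too: Cald1, which encodes the actin regulator caldesmon, averaged 603 ± 80.5 CPM at day 3 and 255 ± 18.7 CPM at day 1 (SD, n = 4 each). Ccn2, a secreted matricellular protein, varied most, with 143, 52.7, 97.5 and 67.7 CPM at day 3, against 38.2, 49.9, 31.2 and 8.72 CPM at day 1. All of its day 3 values lay above all of its day 1 values, and its adjusted p was 0.0237. The Ccn2 call ended without KO2 day 1 library 4 or without KO2 day 3 library 1 or 3 (change 1.09 to 1.53, adjusted p 0.057 to 0.143).

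Serum response factor is known to bind the CArG box in promoters of muscle and cytoskeletal actin genes, and 3 windows that hold the box are shown because they belong to contractile genes that rose. The search was chosen after the values were seen, and Acta1 and Actc1 are outside the list of 30. They run from 250 bases before to 50 bases after the gene start, read 5′ to 3′ on the gene's strand, from RefSeq with the GRCm38.p6 build, and the box is in capitals. Acta1 lies at chr8:123894726-123895025 on the minus strand, Actc1 at chr2:114052826-114053125 on the minus strand and Myl9 at chr2:156775214-156775513 on the plus strand.
Acta1: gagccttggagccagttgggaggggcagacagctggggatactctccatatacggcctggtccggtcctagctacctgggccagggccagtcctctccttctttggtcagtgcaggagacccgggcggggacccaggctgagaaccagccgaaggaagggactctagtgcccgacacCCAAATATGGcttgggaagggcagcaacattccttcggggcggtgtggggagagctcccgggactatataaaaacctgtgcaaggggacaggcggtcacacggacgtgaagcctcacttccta
Actc1: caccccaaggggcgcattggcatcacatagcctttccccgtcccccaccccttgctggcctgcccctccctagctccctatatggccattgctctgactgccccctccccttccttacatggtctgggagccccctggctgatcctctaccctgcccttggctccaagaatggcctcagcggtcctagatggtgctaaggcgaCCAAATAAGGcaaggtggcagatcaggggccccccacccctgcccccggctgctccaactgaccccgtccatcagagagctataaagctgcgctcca
Myl9: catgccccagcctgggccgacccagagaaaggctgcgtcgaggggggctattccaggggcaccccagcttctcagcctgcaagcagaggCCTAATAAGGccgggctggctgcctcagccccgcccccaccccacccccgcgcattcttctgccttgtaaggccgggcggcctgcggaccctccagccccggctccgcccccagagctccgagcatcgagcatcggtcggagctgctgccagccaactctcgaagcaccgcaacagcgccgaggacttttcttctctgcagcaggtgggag
The box starts 73 bases before the gene start in Acta1, 47 in Actc1 and 161 in Myl9. Over both strands it occurs in 3 of 25 windows of the actin list (Anxa5, Cnn2 and Myl9) and in 18 of 1042 windows of genes called higher, or 1.73%. It occurs in 1.38% of windows of tested genes and in 1.63% of all 32851 windows. The table holds no window for Tagln. A match is a description of these letters and says nothing of binding.

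Acta2, Tagln and Cnn1 were also called higher in WT. Acta2 averaged 51.7 ± 24.97 CPM at day 3 in WT and 3.25 ± 0.941 CPM at day 1 (SD, n = 4 each), and its KO2 and WT changes differed by -0.23 ± 0.31 (log2, adjusted p = 0.801). S100a6, which encodes a calcium-binding S100 protein, averaged 186 ± 32.5 CPM at day 3 and 70.6 ± 19.9 CPM at day 1 in KO2, and 15.4 ± 4.07 CPM and 14.8 ± 4.17 CPM in WT. Its KO2 change exceeded the WT change by 1.35 ± 0.39 (log2, adjusted p = 0.0423), a call that ended in 11 of 25 alternatives, among them without KO2 day 1 library 3 or 4 or without KO2 day 3 library 1, 2 or 3 or without WT day 1 library 2, 3 or 4 or without WT day 3 library 1 or 2 (difference 1.19 to 1.36, adjusted p 0.0573 to 0.103). Actc1 differed in the other direction, by -1.41 ± 0.40 (log2, adjusted p = 0.0306), and that call also ended in 11 of 25, among them without KO2 day 1 library 1 or 2 or without KO2 day 3 library 2 or 3 or without WT day 1 library 2 or 4 or without WT day 3 library 1 or 2 (difference -1.25 to -1.41, adjusted p 0.0503 to 0.0809). WT stood at or under 0.83 CPM for Actc1 at day 1, near the level of 3 reads.

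Markers of fibroblasts moved with this group. Of 14 such markers, 11 passed the filter on low values, and 6 of these were called higher and 0 lower. In WT 3 of the 11 were called higher and 0 lower (9.81% and 8.91% of all tested genes), and in KO3 4 and 0 (5.07% and 2.59%). The KO2 change was called above the WT change for 2 of the 11 and different from the KO3 change for 0. The 14 summed to between 99.5 and 172 CPM at day 3 and between 50.2 and 63.0 CPM at day 1, with Fap at 0 in all 4 day 3 libraries. Col1a2, a chain of type I collagen, measured 48.0, 58.5, 25.4 and 28.1 CPM at day 3, against 14.1, 9.89, 4.66 and 5.18 CPM at day 1. Libraries 1 and 2 were the higher pair at both days, and no day 3 value reached down to day 1. The Col1a2 change in KO2 was not shown to differ from that in WT (difference 0.36, log2). Col1a1, the other chain, averaged 15.5 ± 7.90 CPM at day 3 and 3.66 ± 1.47 CPM at day 1, against 0.844 ± 0.237 CPM and 0.793 ± 0.337 CPM in WT (SD, n = 4 each). Dcn, the matrix proteoglycan decorin, averaged 12.5 ± 2.43 CPM at day 3 and 2.51 ± 0.890 CPM at day 1. The part of such cells in the actin result was not tested.

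**Figure D2:**
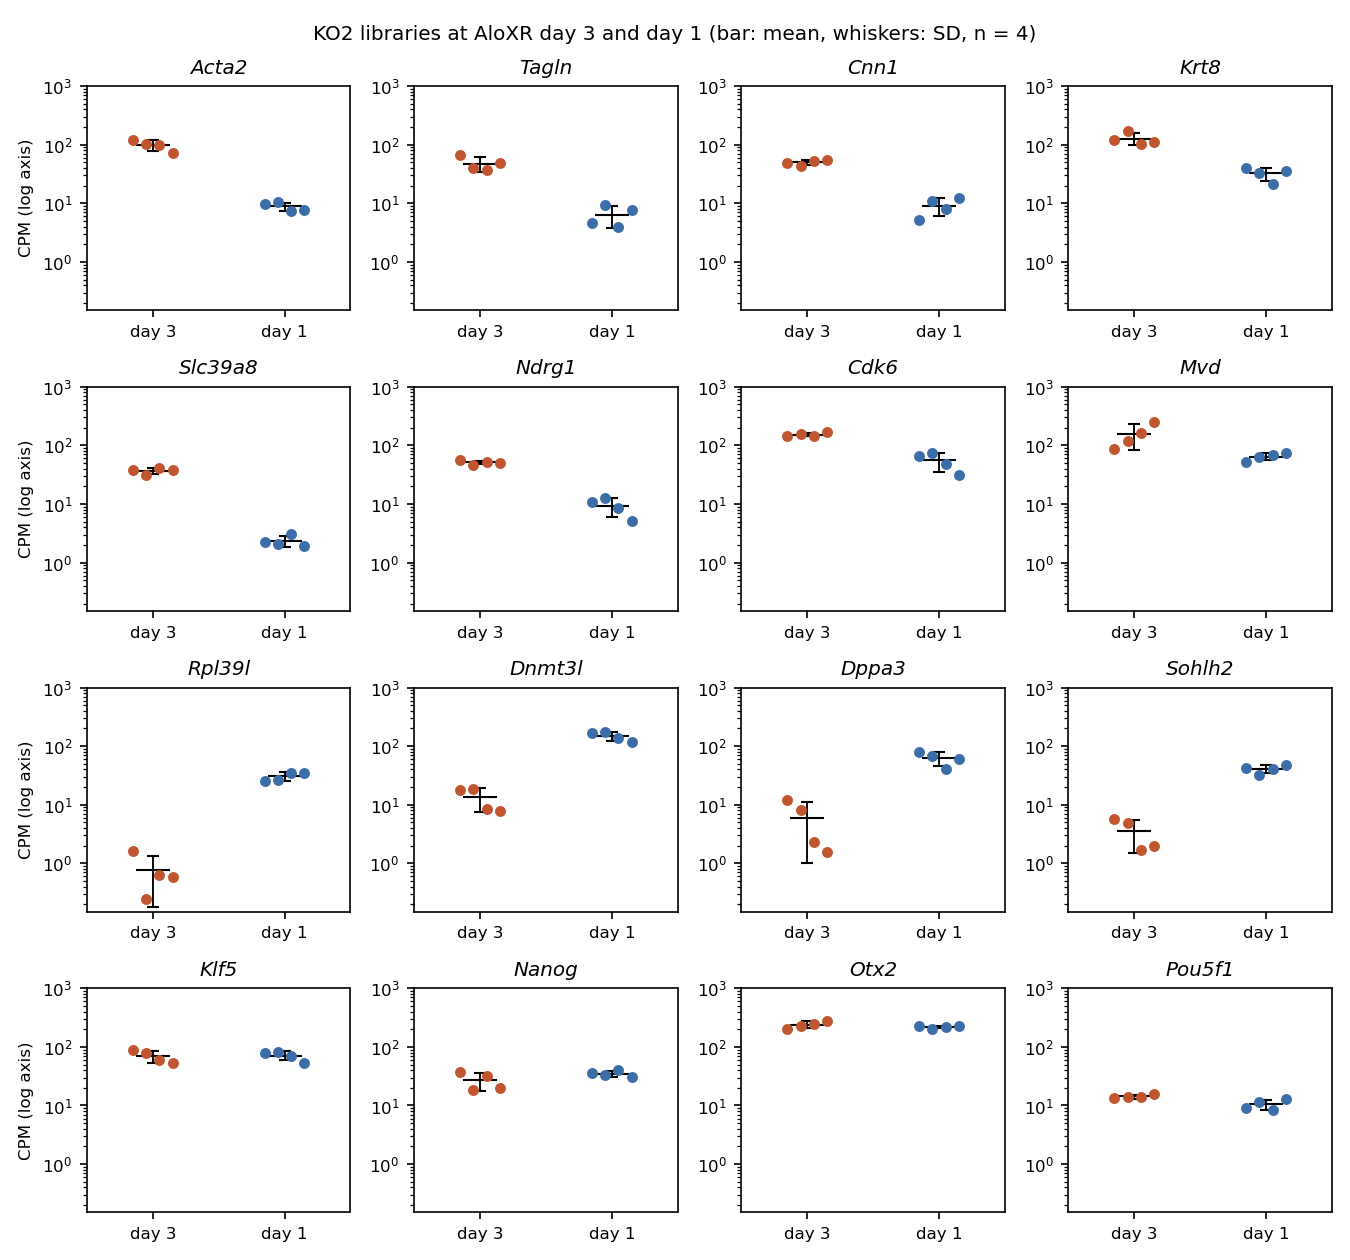
Levels of 16 genes in the 4 KO2 libraries at day 3 (left in each panel) and the 4 at day 1 (right), in CPM on a log axis, with the mean and SD. Acta2, Tagln, Cnn1 and Slc39a8 are higher in every day 3 library, Rpl39l, Dnmt3l, Dppa3 and Sohlh2 are lower in every day 3 library, and Klf5, Nanog and Otx2 overlap.

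Simple epithelial keratins rose strongly. Krt8 measured 122, 168, 104 and 112 CPM at day 3, against 40.2, 33.3, 21.2 and 34.9 CPM at day 1. Krt18, with which it pairs in filaments, measured 423, 446, 340.4 and 269 CPM at day 3, against 109, 106, 73.4 and 86.4 CPM at day 1. Both were separated completely, with changes of 1.94 ± 0.18 and 1.96 ± 0.22 (log2). Krt19, a keratin of simple epithelia and trophoblast, measured 55.5, 50.5, 41.1 and 37.4 CPM at day 3, against 24.4, 25.8, 19.8 and 19.6 CPM at day 1, a change of 1.00 ± 0.22 (log2). Its WT levels were lower throughout, at 7.34 ± 1.51 CPM at day 3 and 1.31 ± 0.984 CPM at day 1 (SD, n = 4 each). The change was not shown to differ from that in WT (difference -0.94 ± 0.31, adjusted p = 0.0703).

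Of 22 epithelial genes, 8 were called higher and 0 lower, with a summed level of 2468 to 2921 CPM at day 3 and 1641 to 1998 CPM at day 1. Among the 8 was Dsp, the desmosomal plaque protein desmoplakin, with a change of 1.84 ± 0.30 (log2). The epithelial list had 13 of 22 called higher in WT. Of 22 trophoblast markers tested, 7 were called higher and 0 lower, and 3 of the 7 were the keratins just given. In WT 7 of the 22 were called higher and 3 lower, and in KO3 10 and 0. The 23 markers of that list summed to between 883 and 1347 CPM at day 3 and between 361 and 506 CPM at day 1. Cdx2 and Eomes, which define trophoblast, were not called, and the part of trophoblast-like cells in the keratin result was not tested. Hand1, a transcription factor of trophoblast and lateral mesoderm, measured 10.3, 10.8, 3.33 and 3.88 CPM at day 3, against 1.76, 0.46, 1.86 and 0.55 CPM at day 1. Libraries 1 and 2 were the higher pair at day 3, and WT stayed at or under 0.43 CPM in all 8 libraries. Id2, an inhibitor of basic helix-loop-helix factors, measured 89.3, 117, 136 and 159 CPM at day 3, against 28.1, 38.6, 32.4 and 50.4 CPM at day 1, with no overlap and a change of 1.72 ± 0.23 (log2). Of 12 basement membrane genes 3 were called higher, among them the type IV collagen gene Col4a1 with 49.5 ± 6.82 CPM at day 3 and 25.4 ± 3.52 CPM at day 1.

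Some targets of ERK signalling rose in KO2 and some fell in WT, with Spry4 doing both. Of 17 genes of the ERK response list, 5 were called higher and 0 lower in KO2 (Egr1, Spry2, Phlda1, Spry4 and Spred1), and 0 were called higher and 6 lower in WT. The difference between the changes was called for 5 genes, all higher in KO2 (2.26% of all tested genes had such a call). In KO3 2 of the 17 were called higher and 0 lower, and the KO2 and KO3 changes were called different for 0. The summed level of the list hardly moved in KO2, at 770 to 927 CPM at day 3 and 650 to 928 CPM at day 1, and in WT it was 440 to 544 CPM at day 3 and 774 to 832 CPM at day 1. Without KO2 day 1 library 4 the count called higher in KO2 was 3.

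Spry2, a feedback inhibitor of receptor tyrosine kinase signalling, measured 97.5, 65.6, 109.6 and 77.6 CPM at day 3, against 33.9, 40.2, 31.4 and 26.4 CPM at day 1. The groups were apart, with a change of 1.37 ± 0.23 (log2, adjusted p = 3.51e-05). Egr1, an immediate early transcription factor, measured 19.2, 16.9, 27.9 and 25.2 CPM at day 3, against 6.02, 3.45, 7.22 and 4.09 CPM at day 1, a change of 1.93 ± 0.52 (log2). Spry4, of the same family as Spry2, averaged 11.3 ± 2.69 CPM at day 3 and 5.17 ± 1.21 CPM at day 1 in KO2, and 3.79 ± 1.12 CPM and 9.05 ± 2.47 CPM in WT (SD, n = 4 each). Its changes differed by 2.06 ± 0.40 (log2, adjusted p = 0.000619). Etv4, an ETS factor induced by FGF, averaged 20.8 ± 6.22 CPM and 15.3 ± 0.903 CPM in KO2, not called, against 10.9 ± 1.75 CPM and 24.2 ± 2.24 CPM in WT, called lower. Dusp5, an ERK phosphatase, did likewise, with a difference of 1.45 ± 0.26 (log2). Phlda1 was called higher at an adjusted p of 0.0291, and that call ended without KO2 day 1 library 3 or 4 or without KO2 day 3 library 1, 2, 3 or 4 (change 0.93 to 1.17, adjusted p 0.0505 to 0.115).

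Immediate early genes, which respond within minutes to handling or growth factors, moved beside these. In KO2, 3 of 14 were called higher (Egr1, Jund and Klf6) and 0 lower. In WT, 0 were called higher and 3 lower. In KO3, 2 were called higher and 0 lower, and the KO2 and KO3 changes were called different for 0. Klf6 measured 147, 149, 184 and 179.6 CPM at day 3, against 102, 119.6, 98.99 and 90.2 CPM at day 1, while WT averaged 97.9 ± 4.55 CPM and 97.6 ± 2.38 CPM. Junb, an AP-1 subunit, averaged 15.3 ± 4.29 CPM at day 3 and 9.99 ± 1.97 CPM at day 1 in KO2, not called, with a difference from the WT change of 1.40 ± 0.34 (log2, adjusted p = 0.00917). How far culture handling entered the ERK and immediate early values was not tested.

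The FGF ligands themselves did not move together. Fgf5, the formative marker, measured 111, 125, 149.7 and 148 CPM at day 3, against 92.9, 90.1, 82.0 and 77.7 CPM at day 1. Its groups did not overlap, and its change of 0.62 ± 0.14 (log2) stood close to the fold minimum. The call ended in 5 of 17 alternatives, among them without KO2 day 1 library 4 or without KO2 day 3 library 3 or 4 (change 0.56 to 0.58, adjusted p 0.00459 to 0.00585). Fgf4, the ligand that drives exit from naive pluripotency, measured 30.4, 49.96, 33.97 and 32.6 CPM at day 3, against 67.0, 60.0, 44.2 and 56.4 CPM at day 1, with overlapping ranges and a change of -0.63 ± 0.17 (log2). The Fgf4 call ended without KO2 day 1 library 1 or without KO2 day 3 library 1 or 4 (change -0.55 to -0.58, adjusted p 0.027 to 0.0359). In WT it measured 8.93, 11.1, 14.9 and 11.2 CPM at day 3 and 126, 122, 115 and 115 CPM at day 1, and the changes differed by 2.65 ± 0.24 (log2, adjusted p = 1.63e-10). Fgf8, a ligand of gastrulation, averaged 4.10 ± 0.744 CPM at day 3 and 10.3 ± 4.02 CPM at day 1 in KO2, and 6.74 ± 3.11 CPM and 1.34 ± 0.548 CPM in WT. The Fgf8 changes were opposite in sign and differed by -2.76 ± 0.51 (log2, adjusted p = 0.000443), though the fall in KO2 lost its call in 6 of 17 alternatives, among them without KO2 day 1 library 3 or 4 or without KO2 day 3 library 1 or 2 (change -0.90 to -1.06, adjusted p 0.0642 to 0.115).

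Part of the sterol synthesis genes rose in KO2. Of 31 genes of sterol and fatty acid synthesis, 12 were called higher, 0 lower and 19 not, with a median change of 0.43 (log2), and the count was 8 to 15 over the alternatives. In WT 1 was called higher and 1 lower, and in KO3 3 and 1. The KO2 change was called above the WT change for 1 of the 31 (3.23%, against 2.26% of all tested genes). It was called above the KO3 change for 3 (9.68%, against 0.112% of all tested genes), and below either for 0. The median difference from KO3 was 0.47 (log2), against -0.04 over all tested genes. For most single genes of the list a difference between the lines was not shown. Among the called genes were enzymes of the cholesterol branch (Mvd, Hsd17b7, Nsdhl, Hmgcs1, Cyp51, Sc5d, Acat2, Msmo1 and Sqle) and the fatty acid enzyme gene Acaca. The summed level of the list was 5160 to 7531 CPM at day 3 and 3818 to 4368 CPM at day 1.

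Mvd, mevalonate diphosphate decarboxylase, measured 86.8, 119, 164 and 254 CPM at day 3, against 52.7, 63.2, 67.3 and 73.6 CPM at day 1. The groups did not overlap, but the day 3 libraries spread widely, and library 4 was the highest. Its KO2 change of 1.16 ± 0.19 exceeded the WT change by 1.35 ± 0.26 (log2, adjusted p = 0.0012) and the KO3 change by 1.71 ± 0.30 (log2, adjusted p = 0.000945), the last not called where only the groups compared were fitted (adjusted p = 0.129). In WT it averaged 78.2 ± 5.54 CPM at day 3 and 88.7 ± 4.54 CPM at day 1. In KO3 it averaged 218 ± 3.94 CPM at day 3 (SD, n = 2) and 321 ± 49.3 CPM at day 1 (SD, n = 4). Hmgcs1, which makes HMG-CoA, measured 874, 815, 1278 and 1163 CPM at day 3, against 565, 567, 504 and 464 CPM at day 1, with libraries 3 and 4 the higher pair. Acat2, a cytosolic thiolase at the head of the pathway, measured 136, 183, 257 and 329 CPM at day 3, against 115, 126, 126 and 133 CPM at day 1, and its change exceeded that in KO3 by 1.36 ± 0.29 (log2, adjusted p = 0.0115, and 0.124 where only the groups compared were fitted). Its KO2 call ended without KO2 day 3 library 4 (change 0.57, adjusted p 0.0228). Hsd17b7 and Nsdhl, which act late in sterol synthesis, changed by 1.07 ± 0.20 and 1.07 ± 0.18 (log2), and neither change was shown to differ from that in WT.

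Single genes outside these lists stood among the largest rises. Slc39a8, a zinc and manganese transporter, measured 38.4, 31.5, 41.5 and 37.6 CPM at day 3, against 2.26, 2.07, 3.03 and 1.91 CPM at day 1. It had the largest rise among genes with a mean of at least 5 CPM, 3.53 ± 0.21 (log2, adjusted p = 8.02e-18), and its WT change of 3.19 ± 0.21 was not shown to differ. Calcr, the calcitonin receptor, measured 29.01, 27.2, 28.8 and 27.9 CPM at day 3, against 3.51, 3.68, 5.59 and 3.82 CPM at day 1. WT went further for Calcr, to 54.0 ± 1.99 CPM at day 3, against 3.23 ± 2.32 CPM at day 1, and the changes differed by -1.35 ± 0.34 (log2, adjusted p = 0.0109). Kcnj3, an inward rectifier potassium channel, averaged 35.7 ± 6.32 CPM at day 3 and 6.61 ± 1.77 CPM at day 1 (SD, n = 4 each). Nrcam, a neural cell adhesion molecule gene, averaged 14.0 ± 9.39 CPM at day 3 and 1.45 ± 0.708 CPM at day 1. Nnat, an imprinted proteolipid gene expressed in neural tissue, measured 131, 145, 175 and 201 CPM at day 3, against 30.6, 37.2, 44.5 and 54.8 CPM at day 1, with no overlap.

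Ndrg1, Cdk6 and Cryab rose in KO2, were not called in WT, and had a called difference between KO2 and WT. All 3 also rose in KO3, and no difference between KO2 and KO3 was called (adjusted p = 0.416 for Ndrg1, 0.629 for Cdk6 and 0.96 for Cryab). Ndrg1, which is induced by hypoxia and growth arrest, measured 55.7, 46.9, 52.5 and 51.0 CPM at day 3, against 10.8, 12.7, 8.62 and 5.18 CPM at day 1. WT averaged 10.3 ± 2.73 CPM at day 3 and 10.4 ± 4.88 CPM at day 1, and the changes differed by 2.36 ± 0.36 (log2, adjusted p = 2.67e-05). In KO3 Ndrg1 averaged 50.4 ± 3.77 CPM at day 3 (SD, n = 2) and 17.7 ± 6.43 CPM at day 1 (SD, n = 4). The hypoxia and glycolysis list did not move with it: of 27 genes 2 were called higher (Ndrg1 and the glucose transporter gene Slc2a3) and 3 lower, Pdk1, Pfkp and Ankrd37. Slc2a3 measured 131, 129, 69.2 and 63.0 CPM at day 3, against 24.4, 20.9, 26.3 and 24.8 CPM at day 1. Pdk1, a kinase that restrains pyruvate oxidation, averaged 15.7 ± 4.05 CPM at day 3 and 34.9 ± 7.75 CPM at day 1. Cdk6, a kinase that drives passage through G1, measured 143, 156, 147 and 166 CPM at day 3, against 66.8, 74.7, 48.0 and 31.4 CPM at day 1, and WT averaged 37.1 ± 4.88 CPM and 38.7 ± 0.480 CPM. The 4 day 3 libraries of Cdk6 lay above all of day 1, and the difference from WT was 1.59 ± 0.27 (log2, adjusted p = 0.000135). Cryab, a small heat shock protein gene, averaged 40.8 ± 7.598 CPM at day 3 and 8.21 ± 1.92 CPM at day 1 in KO2, and 2.15 ± 1.85 CPM and 2.17 ± 0.905 CPM in WT. In KO3 it averaged 92.6 ± 28.6 CPM at day 3 (SD, n = 2) and 17.1 ± 4.07 CPM at day 1 (SD, n = 4). Cryab was the 1 member called of 12 heat shock genes in KO2.

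Stmn2 and Kbtbd11 differed from both other lines. Stmn2, a microtubule regulator of neurons, measured 139.8, 132, 201 and 169 CPM at day 3, against 41.2, 41.9, 58.7 and 62.4 CPM at day 1. The KO2 change of 1.64 ± 0.14 exceeded the WT change by 1.06 ± 0.20 (adjusted p = 0.000577) and the KO3 change by 1.83 ± 0.23 (adjusted p = 9.01e-07), all on the log2 scale. Its day 1 mean of 51.0 CPM in KO2 stood below 184 CPM in WT and 133 CPM in KO3. Kbtbd11, a Kelch and BTB domain protein gene, averaged 29.1 ± 4.48 CPM at day 3 and 8.59 ± 1.56 CPM at day 1. It was not called in WT or in KO3, where the day 3 means were 14.4 and 50.8 CPM and the day 1 means 14.8 and 46.4 CPM.

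**Figure D3:**
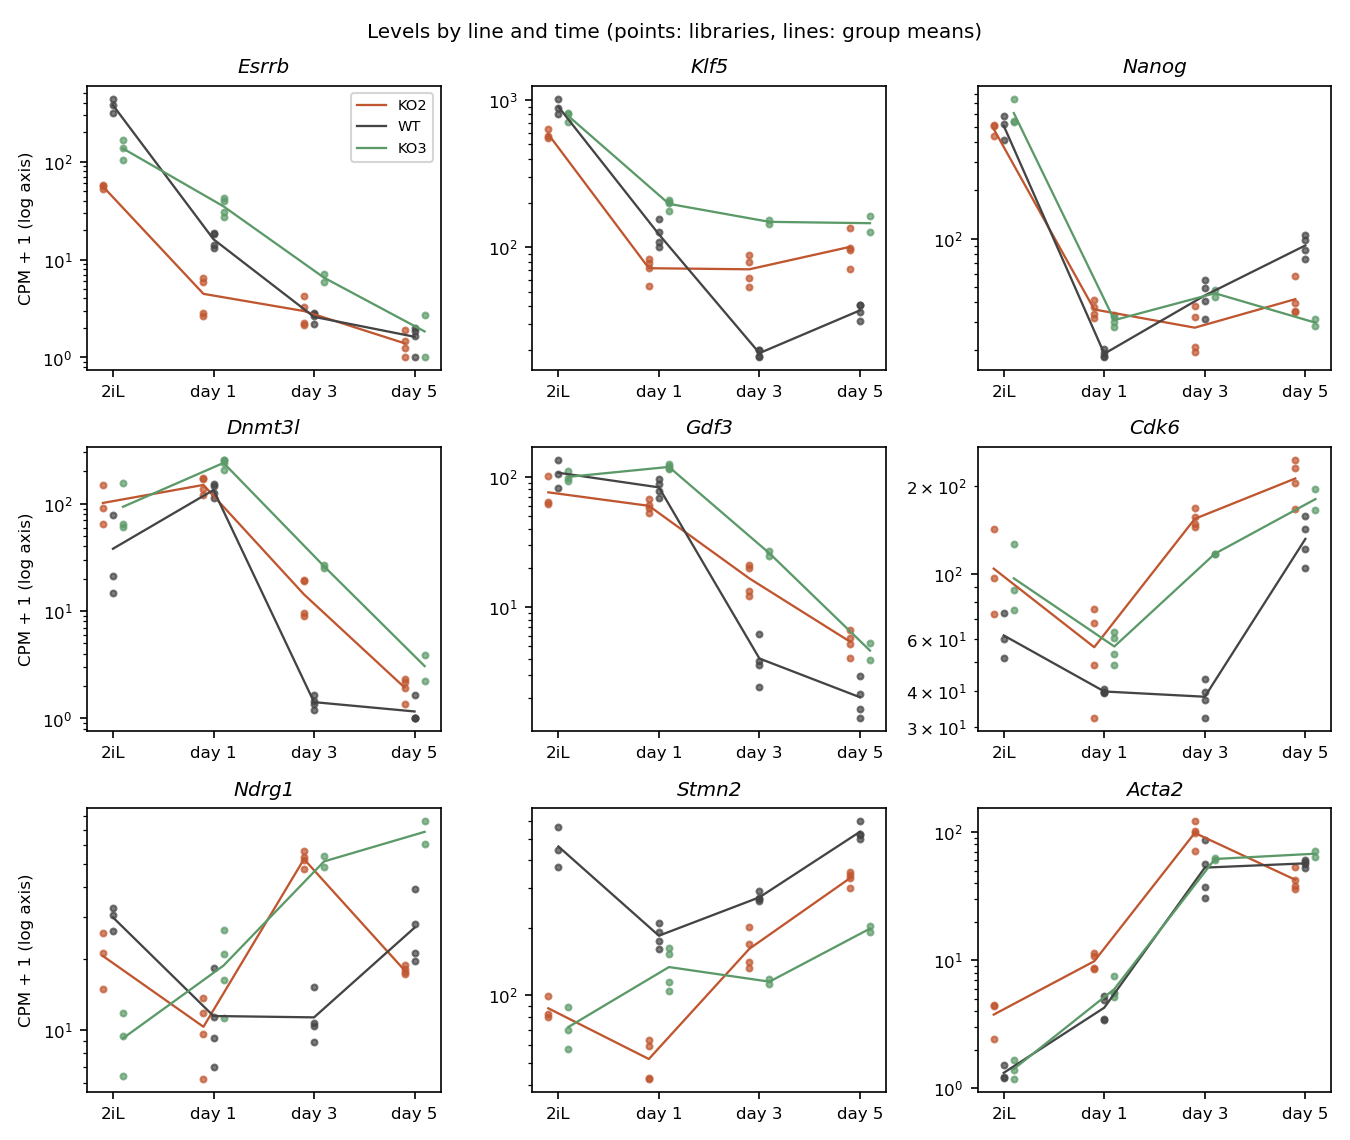
Levels of 9 genes in KO2, WT and KO3 from 2iL through AloXR day 1, day 3 and day 5, as CPM + 1 on a log axis, with a point for each library and lines through the group means. Klf5 in KO2 stays level from day 1 to day 3 while WT falls, Cdk6 and Ndrg1 rise in KO2 and KO3 while WT stays level, and Acta2 rises in all 3 lines.

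Most germline genes of the list fell. Of 25 germline genes with promoters sensitive to DNA methylation, 16 were called lower, 1 higher and 8 not in KO2, with a median change of -1.48 (log2), and 14 to 16 were called lower over the alternatives. In WT 17 were called lower and 2 higher, and in KO3 8 and 0. The summed level was 162 to 243 CPM at day 3 and 692 to 845 CPM at day 1.

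The promoter windows of 3 of them are shown because each holds a CACGTG E-box in a CpG-rich stretch. The E-box is bound by the MGA and MAX proteins of a complex known to repress germline genes, and CpG methylation is known to keep such promoters silent. As above, they run from 250 bases before to 50 after the gene start, 5′ to 3′ on the gene's strand, from RefSeq with the GRCm38.p6 build, with the E-box in capitals. Slc25a31 lies at chr3:40708621-40708920 on the plus strand, Sycp1 at chr3:102936051-102936350 on the minus strand and Mael at chr1:166238695-166238994 on the minus strand.
Slc25a31: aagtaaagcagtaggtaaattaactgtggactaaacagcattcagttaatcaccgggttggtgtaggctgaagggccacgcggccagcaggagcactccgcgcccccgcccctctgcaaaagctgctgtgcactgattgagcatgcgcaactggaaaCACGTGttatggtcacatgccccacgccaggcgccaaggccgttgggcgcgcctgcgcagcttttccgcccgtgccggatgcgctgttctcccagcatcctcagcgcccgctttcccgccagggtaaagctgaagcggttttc
Sycp1: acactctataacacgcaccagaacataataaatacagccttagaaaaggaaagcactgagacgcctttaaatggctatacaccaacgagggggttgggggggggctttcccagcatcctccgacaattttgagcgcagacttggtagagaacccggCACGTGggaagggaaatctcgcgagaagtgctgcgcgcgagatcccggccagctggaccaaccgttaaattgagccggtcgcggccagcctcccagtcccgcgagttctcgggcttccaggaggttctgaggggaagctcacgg
Mael: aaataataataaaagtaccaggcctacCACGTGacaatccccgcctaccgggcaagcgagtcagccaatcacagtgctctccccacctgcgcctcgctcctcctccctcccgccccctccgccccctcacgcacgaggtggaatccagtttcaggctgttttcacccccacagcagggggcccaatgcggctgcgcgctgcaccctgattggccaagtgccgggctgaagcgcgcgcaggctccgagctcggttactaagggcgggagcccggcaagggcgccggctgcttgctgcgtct
The E-box starts 93, 94 and 223 bases before the gene start, and the windows hold 22, 21 and 24 CpG pairs, against a median of 7 over all windows and 19 over windows of tested genes. CACGTG occurs in 15 of the 26 windows of the germline list, or 57.7%, in 9.65% of windows of tested genes, in 9.73% of windows of all genes called lower and in 7.15% of all 32851. Among windows of list members called lower it occurs in 10 of 15, and the window of Sycp3, the member called higher, holds it too. TCAAGGTCA, the motif that Esrrb and its relatives bind, occurs in 0 of the 26, in 0 of 863 windows of all genes called lower, in 1 of 1042 windows of genes called higher, in 0.237% of windows of tested genes and in 0.423% of all windows. TGANTCA, the AP-1 motif, occurs in 5.76% of windows of genes called higher, 7.3% of windows of genes called lower, 5.22% of windows of tested genes and 7.81% of all windows.

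Slc25a31, a testis ADP/ATP carrier, measured 7.08, 5.30, 4.17 and 3.10 CPM at day 3, against 34.6, 31.3, 33.1 and 28.4 CPM at day 1. Sycp1, a synaptonemal complex protein gene, measured 5.48, 4.54, 2.29 and 3.30 CPM at day 3, against 19.08, 16.3, 25.1 and 24.3 CPM at day 1. Mael, of the piRNA pathway, measured 5.94, 4.04, 5.84 and 2.71 CPM at day 3, against 24.1, 18.9, 22.4 and 26.2 CPM at day 1. In all 3 genes each day 3 library lay below each day 1 library, and the changes were -2.51 ± 0.25, -2.21 ± 0.26 and -2.12 ± 0.28 (log2). Tex19.1, a germline and placental regulator of transposons, was the most abundant at day 1, with 45.2, 73.7, 35.9 and 46.7 CPM at day 3, against 387, 326, 245 and 268 CPM at day 1. Smc1b, the meiotic cohesin subunit, averaged 8.86 ± 2.52 CPM at day 3 and 67.5 ± 3.17 CPM at day 1, and Dazl, an RNA-binding protein of germ cells, 3.44 ± 0.560 and 13.8 ± 3.50 CPM. The exception was Sycp3, a synaptonemal complex protein gene, with 54.6, 51.0, 35.9 and 28.7 CPM at day 3, against 23.4, 22.8, 17.7 and 23.99 CPM at day 1. Its call, with an adjusted p of 0.0313, ended in 5 of 17 alternatives, among them without KO2 day 1 library 2 or 3 or without KO2 day 3 library 1 or 2 (change 0.75 to 0.91, adjusted p 0.051 to 0.102).

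Outside that list, the largest falls included genes used in germ cells and early embryos. Rpl39l, an autosomal paralog of Rpl39 used in male germ cells, measured 1.60, 0.25, 0.63 and 0.58 CPM at day 3, against 25.6, 26.9, 34.7 and 35.4 CPM at day 1. Of the day 3 values, 3 are near or below the level of 3 reads, and the change was -4.20 ± 0.23 (log2, adjusted p = 1.24e-18). Rpl10l, a member of the germline list and the testis paralog of Rpl10, measured 8.68, 13.6, 4.38 and 8.34 CPM at day 3, against 123, 113, 104 and 123 CPM at day 1. Tags of such paralogs may be shared with near-identical copies, which makes their level uncertain. Sohlh2, a transcription factor of germ cell differentiation, measured 5.71, 4.79, 1.67 and 1.94 CPM at day 3, against 41.7, 32.4, 41.5 and 47.2 CPM at day 1. Dppa3, which guards the maternal genome from demethylation, measured 12.1, 8.07, 2.29 and 1.55 CPM at day 3, against 80.6, 67.8, 40.3 and 61.1 CPM at day 1. Both were lower in every day 3 library, libraries 3 and 4 most of all, with changes of -3.31 ± 0.27 and -3.45 ± 0.41 (log2). Hsf2bp, which takes part in meiotic recombination, averaged 14.1 ± 9.71 CPM at day 3 and 106 ± 10.8 CPM at day 1. Morc1, a germline repressor of transposons, averaged 3.28 ± 0.189 CPM at day 3 and 29.9 ± 6.49 CPM at day 1, and Lncenc1, a long non-coding RNA of naive embryonic stem cells, 5.94 ± 4.52 and 68.1 ± 20.2 CPM.

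Of 12 primordial germ cell genes 5 were called lower and 0 higher. Of 7 Rhox homeobox genes, an X-linked cluster silenced by methylation, 3 were called lower. In WT 8 of the 12 and 5 of the 7 were called lower (8.91% of all tested genes). In KO3 3 of the 12 were called lower and 1 higher, and 1 of the 7 was called lower (2.59% of all tested genes were lower). Rhox5 measured 92.96, 109, 70.7 and 66.5 CPM at day 3, against 516, 506, 578 and 804 CPM at day 1, with no overlap. Its change of -2.81 ± 0.14 was smaller than the WT fall by 0.75 ± 0.19 and larger than the KO3 fall, with a difference of -0.95 ± 0.21 (all log2).

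Of 9 genes of DNA methylation and demethylation, Dnmt3l and Hells were called lower and Tet3, a demethylating dioxygenase, higher. Dnmt3l, the catalytically inactive partner of the de novo methyltransferases, measured 18.04, 18.7, 8.55 and 7.95 CPM at day 3, against 167, 172, 135 and 119.7 CPM at day 1. Every day 3 value was far below day 1, libraries 3 and 4 most, and the change was -3.47 ± 0.36 (log2, adjusted p = 9.16e-09). In WT it measured 0.20, 0.65, 0.47 and 0.36 CPM at day 3 and 125, 111, 152 and 145 CPM at day 1, and the KO2 fall was the smaller by 3.09 ± 0.50 (log2, adjusted p = 0.00017). Dnmt3b, the de novo enzyme of the epiblast, averaged 1635 ± 23.3 CPM at day 3 and 1585 ± 124 CPM at day 1 and was not called. Hells, a chromatin remodeler needed for methylation of repeats, measured 598, 571, 573 and 559 CPM at day 3, against 1044, 1039, 1034 and 863 CPM at day 1, a change of -0.79 ± 0.13 (log2).

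Several of these genes fell further in WT. The germline list had 5 genes whose KO2 change lay above the WT change and 1 below (1.66% of all tested genes were called below). Rpl10l averaged 8.75 ± 3.79 CPM at day 3 in KO2, against 1.21 ± 1.05 CPM in WT, with 116 ± 8.81 CPM and 157 ± 12.4 CPM at day 1 (SD, n = 4 each). Dppa2 and Dppa4, which keep promoters of developmental and germline genes free of methylation, fell to 4.38 ± 1.42 and 62.5 ± 19.6 CPM at day 3, against 34.6 ± 4.66 and 245 ± 51.4 CPM at day 1. Dppa2 reached 0.571 ± 0.260 CPM in WT at day 3, and its changes differed by 2.21 ± 0.42 (log2, adjusted p = 0.000725).

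Naive pluripotency genes fell in part. Of 22, 9 were called lower and 0 higher in KO2, and 17 lower and 1 higher in WT. In KO3 9 were called lower and 0 higher, and the KO2 change was called above the KO3 change for 1 and below it for 2. Between KO2 and WT the difference in change was called for 11 of the 22, with KO2 above WT in 10 and below it in 1. A called difference also arises where KO2 was already low at day 1 and WT then fell. Esrrb, for one, averaged 3.46 CPM in KO2 and 15.1 CPM in WT at day 1. The count therefore does not show that these genes were kept on in KO2. The list summed to between 187 and 261 CPM at day 3 and between 429 and 570 CPM at day 1 in KO2, and to between 89.0 and 123 CPM and between 598 and 673 CPM in WT.

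Klf5, a Krüppel-like factor of the naive state, measured 87.5, 78.5, 60.4 and 53.1 CPM at day 3, against 77.3, 82.3, 71.0 and 53.7 CPM at day 1. The ranges overlap almost entirely. In WT Klf5 measured 16.8, 18.99, 19.2 and 17.4 CPM at day 3 and 99.2, 107, 154 and 126 CPM at day 1, and the changes differed by 2.63 ± 0.21 (log2, adjusted p = 6.88e-12). Klf4 averaged 3.87 ± 0.941 CPM at day 3 and 4.70 ± 2.33 CPM at day 1, and Tfcp2l1 4.89 ± 1.25 and 5.77 ± 1.30 CPM, with no call for either. Both had stood far higher in 2iL, at 69.0 and 283 CPM. Klf2 was called lower, with 1.83, 4.04, 4.79 and 6.59 CPM at day 3, against 18.6, 17.01, 21.4 and 17.7 CPM at day 1. Its fall differed from KO3, where the means were 9.11 CPM at day 3 and 8.86 CPM at day 1, by -2.01 ± 0.36 (log2, adjusted p = 0.000911).

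Nanog was not called in KO2 and rose in WT. It measured 37.0, 18.7, 31.3 and 19.97 CPM at day 3, against 36.4, 32.9, 40.1 and 30.8 CPM at day 1 in KO2, with overlapping ranges (adjusted p = 0.0761). Without day 3 library 1 it passed, with a change of -0.60 (adjusted p = 0.0113). In WT it measured 48.1, 54.1, 39.8 and 30.2 CPM at day 3 and 18.4, 19.3, 17.5 and 17.1 CPM at day 1, and the changes differed by -1.61 ± 0.24 (log2, adjusted p = 1.45e-05). Nr0b1, an orphan receptor of the naive network, and Upp1, uridine phosphorylase, were near their floor in KO2 on both days. Nr0b1 averaged 0.653 ± 0.515 CPM at day 3 and 0.418 ± 0.488 CPM at day 1 in KO2, against 0.296 ± 0.234 CPM at day 3 and 10.3 ± 3.11 CPM at day 1 in WT. Upp1 averaged 1.86 ± 1.02 CPM at day 3 and 1.66 ± 1.06 CPM at day 1 in KO2, against 3.51 ± 1.26 CPM at day 3 and 46.2 ± 5.85 CPM at day 1 in WT.

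Dppa5a, an RNA-binding protein gene of pluripotent cells, fell to 19.8 ± 5.19 CPM at day 3, against 94.3 ± 20.6 CPM at day 1, and Tdh, threonine dehydrogenase, to 9.24 ± 5.41 against 37.0 ± 2.86 CPM. For both the WT fall was larger, by 1.87 ± 0.28 and 1.60 ± 0.40 (log2). Of 13 core pluripotency genes 3 were called lower (Dppa2, Dppa4 and Tdgf1) and 1 higher, Sall4, with 119.6 ± 17.7 CPM at day 3 and 61.8 ± 10.8 CPM at day 1. Tdgf1, the Nodal co-receptor Cripto, measured 126, 113, 135 and 81.4 CPM at day 3, against 324, 287, 309 and 311 CPM at day 1. Of 16 Nodal and activin response genes 3 were called lower and 2 higher. Gdf3, a ligand of the same pathway, averaged 15.6 ± 4.41 CPM at day 3 and 58.9 ± 6.33 CPM at day 1 in KO2, and 3.04 ± 1.59 CPM and 81.9 ± 12.3 CPM in WT, a difference of 2.55 ± 0.31 (log2, adjusted p = 2.13e-07). Lefty1, a Nodal antagonist, measured 76.8, 90.1, 54.2 and 48.3 CPM at day 3, against 128, 124, 187 and 169 CPM at day 1. The groups do not overlap, and the call ended without KO2 day 1 library 1, 3 or 4 or without KO2 day 3 library 3 or 4 (change -1.04 to -1.26, adjusted p 0.0507 to 0.115).

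**Figure D4:**
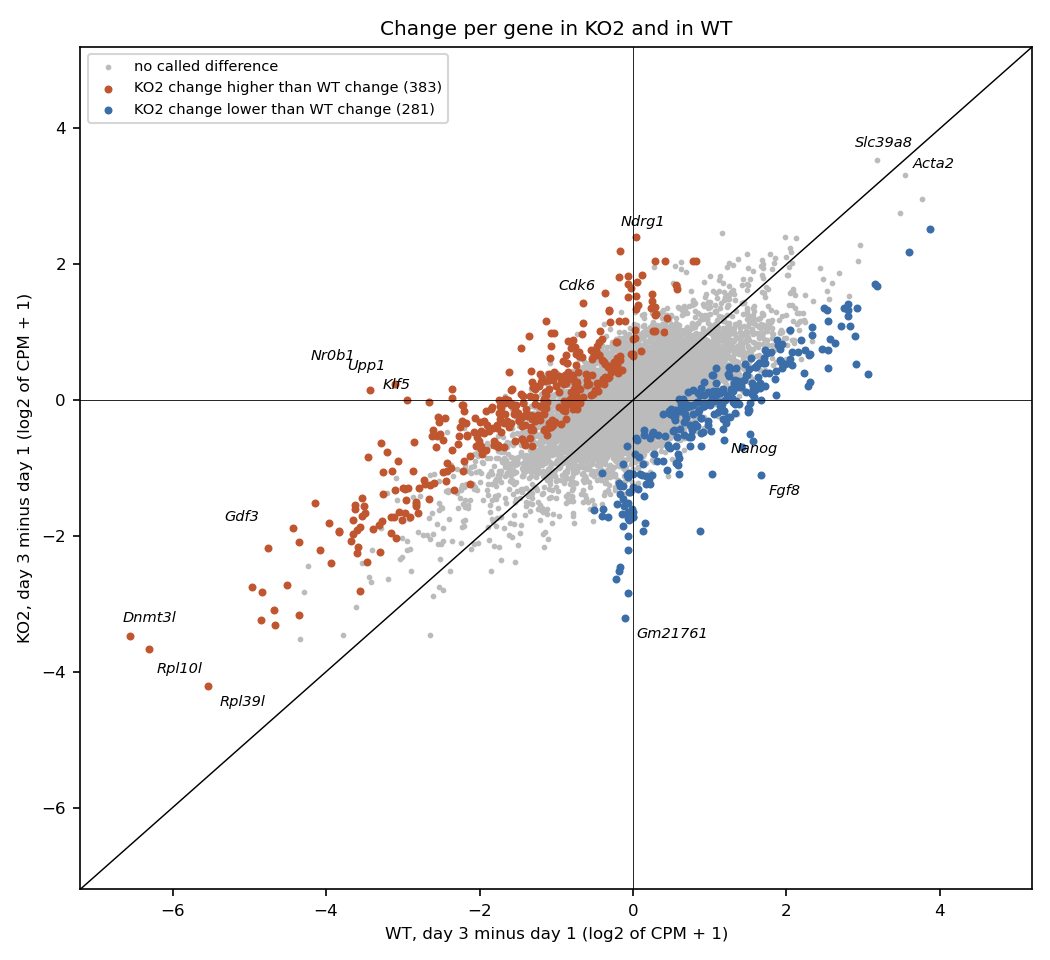
Change from day 1 to day 3 on the log2(CPM + 1) scale in KO2 (vertical) and in WT (horizontal) for 16967 tested genes, with the diagonal of equal change. Coloured points mark genes whose KO2 change was called higher (383) or lower (281) than the WT change. Dnmt3l, Rpl10l and Gdf3 fell less in KO2, Klf5, Upp1 and Nr0b1 fell in WT alone, and Gm21761 lies straight below 0, lower in KO2 and near 0 CPM in WT on both days. Upp1 and Nr0b1 were near their floor in KO2 on both days.

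Formative genes moved in both directions. Of 24 formative genes 7 were called higher and 4 lower in KO2, and 7 and 8 in WT. Otx2, which sets up the formative enhancers, measured 203, 231, 248 and 277 CPM at day 3, against 223, 205, 221 and 228 CPM at day 1. Pou3f1, a POU factor of the epiblast, measured 449, 475, 569.6 and 653 CPM at day 3, against 385, 386, 466 and 421 CPM at day 1. Otx2 overlapped, Pou3f1 overlapped at 1 day 3 library, and neither was called (adjusted p = 0.74 and 0.168). Car14, a membrane carbonic anhydrase, had the largest rise of the list, with 24.8 ± 2.64 CPM at day 3 and 7.55 ± 1.56 CPM at day 1. The neural and epiblast factors Zic2 and Sox4 averaged 38.2 ± 15.04 and 388 ± 41.6 CPM at day 3, against 17.5 ± 6.61 and 210.2 ± 24.5 CPM at day 1, and both were called higher. The Zic2 call ended where only the groups compared were fitted (limma, adjusted p = 0.0566). Tcf15, a factor of primed precursors, averaged 5.76 ± 1.52 CPM at day 3 and 18.5 ± 3.22 CPM at day 1, called lower. Of 19 neuroectoderm genes 4 were called higher, among them Nes, the intermediate filament nestin, with 134 ± 27.5 CPM at day 3 and 68.4 ± 11 CPM at day 1.

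Two-cell-like transcripts were present in KO2 at day 1 and lower at day 3, when their sum still lay above that in WT. They mark a rare state of embryonic stem cell cultures that resembles the 2-cell embryo. Of 21 such genes 11 passed the filter, and 9 of these were called lower and 0 higher. Of the 11, 10 also pass it without the 8 KO2 libraries compared, and the 9 called are among these. The 21 summed to between 2.50 and 6.81 CPM at day 3 and between 20.6 and 34.9 CPM at day 1. In WT they summed to between 0.81 and 1.42 CPM and between 0.56 and 1.49 CPM, and 0 of 11 were called in WT, where 0 passed an unadjusted p under 0.05. All values are low: the count called lower was 2 with a pseudocount of 5 CPM and 1 where a filter of 5 CPM was used, and fitted changes here are no measure of fold.

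Zscan4a and Zscan4c, zinc finger genes of the Zscan4 cluster, measured 0, 0.76, 0 and 0 CPM and 0.23, 0, 0 and 0.19 CPM at day 3, against 3.26, 2.76, 1.86 and 3.54 CPM and 1.76, 0.69, 2.33 and 4.36 CPM at day 1. Usp17lc, a ubiquitin protease gene of the same state, measured 1.37, 1.01, 0.21 and 0.58 CPM at day 3, against 3.51, 4.83, 3.49 and 6.54 CPM at day 1. None of these groups overlap, and most day 3 values lie below the level of 3 reads. Zscan4d, of the same cluster, measured 0, 0, 0.42 and 0 CPM at day 3, against 0.25, 1.61, 2.79 and 1.64 CPM at day 1, and Zfp352, a retroposed zinc finger gene, 0.46, 0.25, 0.21 and 0 CPM against 1.51, 2.76, 2.10 and 2.73 CPM. Zscan4d overlaps between the days and Zfp352 does not. The genes of these clusters are close copies of each other, so reads may be split among them. In KO3 Zscan4c measured 2.47 and 1.70 CPM at day 3 and 1.31, 1.09, 0.21 and 0.23 CPM at day 1, higher in both day 3 libraries. The difference from the KO2 change was -2.36 ± 0.38 (log2, adjusted p = 0.000269), and it was called for 5 of the 11 genes, all lower in KO2 (with edgeR and with DESeq2 the calls of Zscan4a, Zscan4d and Usp17lc ended, adjusted p 0.0696 to 0.273), while of all tested genes 0.631% were called lower and 0.112% higher.

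Gm21761 and Gm8994, genes with no role known here, had the same pattern at higher levels. Gm21761 measured 12.1, 10.6, 3.75 and 2.52 CPM at day 3, against 54.7, 54.3, 55.2 and 106 CPM at day 1 in KO2. It measured 40.1 and 37.0 CPM at day 3 and 22.6, 20.8, 24 and 31.6 CPM at day 1 in KO3, and at most 0.95 CPM in the 8 WT libraries. The KO2 groups do not overlap, day 1 library 4 was the highest, and the KO2 and KO3 changes differed by -3.84 ± 0.45 (log2, adjusted p = 4.81e-07). Gm8994 averaged 1.69 ± 1.65 CPM at day 3 and 17.1 ± 7.64 CPM at day 1 in KO2, and 9.51 ± 0.656 CPM and 6.19 ± 1.39 CPM in KO3.

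**Figure D5:**
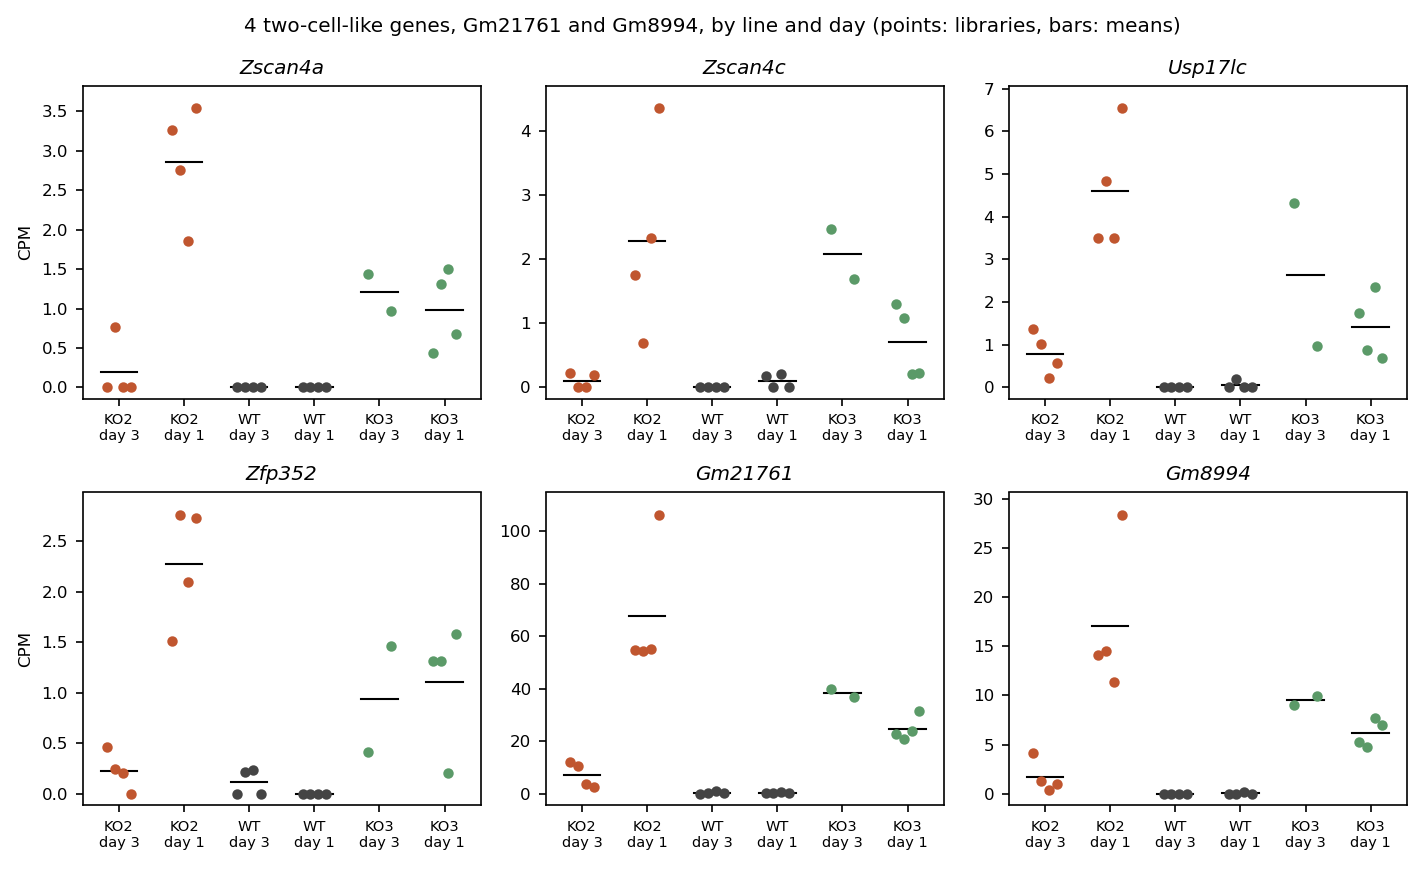
Levels of Zscan4a, Zscan4c, Usp17lc, Zfp352, Gm21761 and Gm8994 in CPM, by line and day, with a point for each library and a bar at the mean. KO2 at day 1 holds the highest value in every panel, KO2 at day 3 lies at or below 1.37 CPM in the first 4 panels, and WT stays at or below 0.95 CPM on both days.

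Imprinted genes moved in both directions. Of 27, 6 were called higher and 3 lower. Magel2, a paternally expressed ubiquitin ligase regulator, measured 31.3, 28.8, 88.0 and 77.6 CPM at day 3, against 15.6, 12.2, 21.7 and 10.4 CPM at day 1, with libraries 3 and 4 the higher pair. Peg10, a retrotransposon-derived gene of the placenta, measured 229.8, 263, 132 and 106 CPM at day 3, against 83.6, 103, 73.6 and 53.2 CPM at day 1, with libraries 1 and 2 the higher pair. The Peg10 call in KO2 ended where only the groups compared were fitted (limma, adjusted p = 0.0645). Cdkn1c, an inhibitor of cyclin-dependent kinases, measured 20.3, 16.6, 6.88 and 9.5 CPM at day 3, against 56.0, 47.1, 57.5 and 46.1 CPM at day 1, lower in every day 3 library. H19, a maternally expressed non-coding RNA, measured 571, 804, 163 and 216 CPM at day 3, against 302, 294, 347 and 376 CPM at day 1. Its day 3 libraries lay on both sides of day 1, and it was not called.

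The remaining lists are given by their counts, beside 6.3% higher and 5.86% lower over all genes. Of 20 genes of G2 and M phase and 31 ribosomal protein genes, 0 were called in KO2, and 0 of 9 mitochondrially encoded genes. At an unadjusted p under 0.05, limma passed 4, 6 and 2 of them, with no fold minimum. With edgeR and with DESeq2 the counts were 0, 0 and 1, the last lower at day 3. Of 30 oxidative phosphorylation genes 1 was called lower, Cox7b, named here after its value was seen. Of 25 genes of amino acid stress and the unfolded protein response 1 was called higher and 3 lower (12%), among them Nupr1, a stress-response chromatin protein gene, with 9.18 ± 3.94 CPM at day 3 and 35.9 ± 2.96 CPM at day 1. Of 14 interferon and antigen presentation genes 2 were called lower, Ifitm1 and Irf1 (14.3%), and 1 higher, B2m, the light chain of class I molecules, with 125 ± 30.03 CPM at day 3 and 51.9 ± 9.63 CPM at day 1. Irf1, an interferon-regulated factor, averaged 82.0 ± 10.4 CPM at day 3 and 176 ± 34.3 CPM at day 1. Of 18 Wnt response genes 2 were called higher and 1 lower, of 13 BMP response genes 2 (15.4%) and 1, of 15 retinoic acid response genes 0 and 2 (13.3%), and of 13 LIF and STAT3 response genes 0 and 1. Of 19 p53 response genes 2 were called higher and 1 lower, of 12 G1 cyclin and CDK inhibitor genes 2 (16.7%) and 1, of 21 primitive endoderm genes 3 (14.3%) and 0, and of 18 mesendoderm genes 1 and 1. Over the alternatives the p53 counts ran from 0 to 2 higher and 0 to 1 lower, and the mesendoderm counts from 0 to 1 and 0 to 2. The lower counts of the Wnt and BMP lists and the higher count of the amino acid stress list also reached 0 in some. Runx1, of blood progenitors, was the 1 haematopoietic marker called higher, at 4.17 ± 0.868 CPM at day 3, against 1.16 ± 1.09 CPM at day 1.

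Set beside the other lines, KO2 had fewer genes called than WT. It had more than KO3, but not where only the groups compared were fitted (1791 in KO2, 1902 in KO3) or with a 2-fold minimum (874 in KO2, 875 in KO3). WT had 1665 genes called higher and 1512 lower (18.7% of tested genes in either direction), and KO3, with 2 libraries at day 3, had 861 and 439 (7.66%). Of the genes called higher in KO2, 596 were called higher in WT, which is 55.8% of the KO2 calls and 35.8% of the WT calls, and 11 were called lower. Of those called lower in KO2, 584 were called lower in WT, 58.7% of the KO2 calls and 38.6% of the WT calls, and 4 were called higher. The lines share no libraries. A change in 1 line without a call in another does not show a difference, so the difference was tested: it was called for 664 genes against WT (3.91%), 383 with the KO2 change above and 281 below, and for 126 against KO3 (0.743%), 19 above (0.112%) and 107 below. The KO3 counts rest on few libraries, since without its day 3 library 1 or 2 the differences called were 59 and 34.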

How the data were processed

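RNA of 41 libraries was sequenced by QuantSeq, and the authors deposited 1 table in CPM, counts scaled to 1000000 per library. Per the submitters' processing notes, STAR 2.7.6a, featureCounts 2.0.1 of Subread and GRCm38 were used; how strand and shared reads were handled is not given in the sources used here. All 766190 values above 0 were whole multiples of 1 read within 0.01, so reads were recovered (100% whole).

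log2(CPM + 1) was fitted with limma 3.58.1 (trended, robust) in R 4.3.3 over the 12 group means of all libraries, for 16967 of 55487 genes that reached 1 CPM in 3 or more libraries. Such a scale understates changes of low genes. Differences between lines were tested in the same fit. edgeR 4.0.16 (which called 1839 genes for KO2) and DESeq2 1.42.0 on the recovered reads were alternatives, beside other pseudocounts, filters, scalings and left-out libraries. Scripts were tested on simulated data, and figures used matplotlib 3.10.9 with Python 3.11.15. Promoter windows came from RefSeq with the GRCm38.p6 build, with a window for 11572 tested genes. Both strands were searched, and the CArG box was added after the values were seen. Errors after ± on the log2 scale are standard errors, and others are SD. Floors of 3 reads cover counting error only, since reads are not independent molecules.

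The members and lists were chosen with earlier results of these data known. Named genes were Esrrb and 11 markers, the 15 largest rises and falls of at least 5 CPM, up to 3 called members of each list, and the largest called differences from WT and KO3. Outside that rule, and chosen after their values were seen, are Myl9, S100a6, Slc25a31, Sycp1, Mael, Sycp3, Zscan4a, Zscan4c, Zscan4d, Zfp352, Usp17lc, Ccn2, Cald1, Sall4, Zic2, Sox4, Pdk1, Dazl, Klf2, Tdh, Hmgcs1, Acat2, Etv4, Spry4, Dusp5, Col1a1, Runx1, Junb and Peg10 (29 genes), and genes named without a value.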

Additional observations from a re-analysis of the deposited data

Results flagged for a closer look

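The change from day 1 to day 3 was called different between KO2 and WT for 45 of the 105 genes whose values are given, and different between KO2 and KO3 for 16. Values are the KO2 change minus the other line's change on the log2(CPM + 1) scale, tested with limma.

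Among naive and early embryo genes the KO2 change lay above the WT change by 2.10 for Esrrb, 2.63 for Klf5, 3.34 for Nr0b1, 3.57 for Upp1, 2.65 for Fgf4, 1.87 for Dppa5a, 2.21 for Dppa2 and 1.60 for Tdh. Esrrb, Nr0b1 and Upp1 were already low in KO2 at day 1, so their differences do not show levels kept up in KO2. Nanog differed by -1.61. Among genes of the germline and DNA methylation the difference was 3.09 for Dnmt3l, 2.64 for Rpl10l, 1.33 for Rpl39l, 1.36 for Sohlh2, 1.82 for Dazl, 1.59 for Hsf2bp, 2.01 for Morc1 and 0.75 for Rhox5.

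Among signalling genes it was 1.48 for Etv4, 2.06 for Spry4, 1.45 for Dusp5, 1.79 for Phlda1, 0.67 for Klf6, 1.40 for Junb, 2.55 for Gdf3, 2.08 for Tcf15 and -2.76 for Fgf8. Among the other genes it was 1.35 for S100a6, -1.41 for Actc1, 1.68 for Col1a1, 1.89 for Hand1, 1.45 for Peg10, 1.59 for Cdk6, 1.35 for Mvd, 2.36 for Ndrg1, 2.36 for Cryab, -1.35 for Calcr, 1.06 for Stmn2, 1.68 for Kbtbd11 and 1.89 for Nupr1. Two-cell-like genes and those with their pattern stood near 0 CPM in WT, so their fitted differences are no measure of fold. They were -1.72 for Zscan4a, -1.33 for Zscan4c, -1.55 for Zfp352, -1.59 for Usp17lc, -3.11 for Gm21761 and -2.77 for Gm8994.

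Against KO3 the difference was 1.88 for Esrrb, 1.71 for Mvd, 1.36 for Acat2, 1.83 for Stmn2 and 1.51 for Kbtbd11. It was -3.07 for Rpl39l, -1.63 for Rpl10l, -1.75 for Sycp1, -0.95 for Rhox5 and -2.01 for Klf2. For two-cell-like genes and those with their pattern it was -1.91 for Zscan4a, -2.36 for Zscan4c, -1.64 for Zscan4d, -2.14 for Usp17lc, -3.84 for Gm21761 and -3.41 for Gm8994. KO3 had 2 libraries at day 3.

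Some of these calls ended when 1 library was left out. Against WT that held for Calcr without WT day 1 library 3 (difference -1.01, adjusted p 0.0524), Rhox5 without KO2 day 3 library 2 (difference 0.62, adjusted p 0.0575) and Zscan4c without KO2 day 1 library 4 (difference -1.05, adjusted p 0.0559). The same was seen for Col1a1 without KO2 day 1 library 3 or 4 or without KO2 day 3 library 1 or 2 or without WT day 1 library 4 (difference 1.45 to 1.56, adjusted p 0.0577 to 0.0685) and Peg10 without KO2 day 1 library 4 or without KO2 day 3 library 1 or 2 or without WT day 1 library 2 (difference 1.24 to 1.31, adjusted p 0.0515 to 0.06). For Nupr1 it was seen without KO2 day 3 library 1 or 2 or without WT day 1 library 2 or without WT day 3 library 1 or 2 (difference 1.65 to 1.82, adjusted p 0.0581 to 0.0784) and for Sohlh2 without KO2 day 1 library 2 or without KO2 day 3 library 1 or 2 or without WT day 1 library 1 (difference 1.14 to 1.30, adjusted p 0.0583 to 0.0837). It held also for Hsf2bp without KO2 day 1 library 3 or 4 or without KO2 day 3 library 1 or 2 or without WT day 1 library 1, 3 or 4 or without WT day 3 library 1, 2 or 4 (difference 1.26 to 1.60, adjusted p 0.0519 to 0.0807) and Phlda1 without KO2 day 1 library 3 or 4 or without KO2 day 3 library 1, 2, 3 or 4 or without WT day 1 library 1, 2 or 3 or without WT day 3 library 1, 2 or 3 (difference 1.59 to 1.85, adjusted p 0.0573 to 0.101). Against KO3 it held for Acat2 without KO3 day 3 library 1 or 2 (difference 1.36, adjusted p 0.0922 to 0.103), Kbtbd11 without KO3 day 3 library 1 or 2 (difference 1.49 to 1.52, adjusted p 0.0878 to 0.0879) and Rhox5 without KO3 day 3 library 1 or 2 (difference -0.94 to -0.97, adjusted p 0.0982 to 0.14). Esrrb lost it without KO2 day 1 library 4 or without KO3 day 3 library 1 or 2 (difference 1.67 to 2.02, adjusted p 0.0543 to 0.213) and Rpl10l lost it without KO3 day 3 library 2 (difference -1.54, adjusted p 0.133). It held for Sycp1 without KO2 day 3 library 3 or without KO3 day 1 library 1 or without KO3 day 3 library 1 or 2 (difference -1.58 to -1.76, adjusted p 0.0535 to 0.145), Usp17lc without KO3 day 3 library 1 (difference -1.42, adjusted p 0.284) and Zscan4d without KO2 day 1 library 3 or without KO3 day 1 library 3 or without KO3 day 3 library 1 (difference -1.12 to -1.45, adjusted p 0.056 to 0.394).

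With the count models some calls ended too. Against WT 12 of the 45 ended with edgeR. With DESeq2 as well the call ended for Usp17lc (adjusted p 0.615 to 0.899), Gm8994 (0.346 to 0.926), Hand1 (0.251 to 0.325), Rpl39l (0.145 to 0.272) and Col1a1 (0.105 to 0.171). For Zscan4a (edgeR adjusted p 1), Zscan4c (0.92) and Zfp352 (0.131) it ended with edgeR, and DESeq2 gave no adjusted p. With edgeR alone, while DESeq2 kept the call, it ended for Gm21761 (0.282), S100a6 (0.0719), Phlda1 (0.0664) and Nupr1 (0.0572). A difference from WT was therefore not shown by either model for Usp17lc, Gm8994, Hand1, Rpl39l or Col1a1, nor by edgeR for Zscan4a, Zscan4c or Zfp352. Against KO3 the calls of Usp17lc (0.0696 to 0.107), Zscan4a (0.0967 to 0.124) and Zscan4d (0.154 to 0.273) ended with both, and those of Esrrb (0.225) and Sycp1 (0.109) with edgeR alone. Where only the groups compared were fitted, Mvd (0.129), Acat2 (0.124), Zscan4d (0.124) and Rhox5 (0.0845) were not called against KO3, nor Hsf2bp (0.117), Peg10 (0.0518) and Rhox5 (0.0517) against WT. With limma and a pseudocount of 5 CPM the difference of Sohlh2 from WT was 0.16 (adjusted p 0.851). Actc1 (-0.67, adjusted p 0.0563) and Nupr1 (1.14, adjusted p 0.0792) were not called there either. Zfp352 (-0.50) and Zscan4c (-0.46) came under the fold minimum.

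Of 210 groups of 4 KO2 libraries, 1 for each gene and day, 11 held a library far from the other three by Dixon's criterion, which chance gives in about 1 in 20 groups. At day 3 the highest library stood apart for Cryab at 52.2 CPM, Pou5f1 at 15.9 CPM, Zscan4d at 0.42 CPM and Zscan4a at 0.76 CPM, and the lowest for Kbtbd11 at 22.4 CPM and Dsp at 14.6 CPM. At day 1 the highest stood apart for Calcr at 5.59 CPM, Dppa4 at 322 CPM and Gm21761 at 106 CPM, and the lowest for Tfcp2l1 at 3.82 CPM and Hells at 863 CPM.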

How the results depend on the processing

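The 2064 genes called in KO2 became 1025 with a pseudocount of 5 CPM (581 higher and 444 lower) and 874 with a 2-fold minimum, and the 3177 called in WT became 1702 and 1566. In KO3 the 1300 became 884 and 875, and 1902 where only the groups compared were fitted, against 1791 in KO2. The 126 differences between KO2 and KO3 became 69 with a filter of 5 CPM, 43 with edgeR and 79 with DESeq2, and the share of them higher in KO2 was 15.1% by limma, 32.6% with edgeR and 35.4% with DESeq2. In KO3 quantile normalization moved the share called higher to 52.4%, against 66.2%. Over fits that each left out 1 library, counts ran from 1757 to 1993 for KO2, 2843 to 2998 for WT, 539 to 1237 for KO3, 513 to 671 for KO2 against WT and 34 to 140 for KO2 against KO3. Without KO3 day 3 library 1 or 2 the KO3 count was 606 and 539.

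Of 107 such counts 11 moved by over 1.5 times. Signs turned for genes not called in KO2. Dnmt3b was -0.0021 with TMM, -0.0025 with edgeR and -0.0033 with DESeq2. With 1 library left out, Klf5 ran from -0.161 to 0.0863, Klf4 from -0.390 to 0.0758, Upp1 from -0.188 to 0.348 and H19 from -0.268 to 0.497 (log2). The cause was not tested. Of the values for KO2 changes of named genes under alternatives, 1725 kept direction and side of the threshold, 41 lost the call and 1 gained it. Of the differences from WT 1023 kept it and 98 lost it, and of those from KO3 330 and 35. Those 98 include the DESeq2 values of Zscan4a, Zscan4c and Zfp352, which had no adjusted p. No paired analysis was possible because the labels give no replicate numbers.

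Levels under 0.582 to 0.818 CPM rest on fewer than 3 reads, which limits the two-cell-like genes and Hand1, Nr0b1 and Rpl39l most. With 4 libraries a group, an exact permutation test cannot go below 0.0286, so single genes rest on limma's spread shared over all 41 libraries. KO3 at day 3 rests on 2 libraries.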
